A study of Mus musculus with 6 samples.

Results

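The genes described here encode the machinery of pigment: the enzymes Tyr, Tyrp1 and Dct, the melanosome proteins Pmel and Mlana, the receptor Gpr143, the transporters Slc45a2, Oca2 and Slc24a5, and the transport GTPase Rab27a. They were chosen by name, and all 10 were found among the 55335 gene identifiers of the count tables through GENCODE release M21. All 10 were among the 13642 genes that passed the filter on low counts. RNA of 3 scrambled control and 3 IFNγR1KO cultures of B16 mouse melanoma cells was sequenced after poly(A) selection, to ask which transcripts differ once the receptor of IFN-γ is lost. B16-BL6 is a pigmented line derived from a melanoma of C57BL/6 mice. Both groups had been transduced with a lentiviral Cas9 vector and selected with puromycin. The vector of the scrambled control cells carries a guide targeting GFP, and that of the IFNγR1KO cells carries a guide against exon 1 of Ifngr1. No cytokine or drug is named for these cultures, which were seeded in triplicate overnight before lysis. Single clones were grown out after selection, and the guide and clone that were sequenced are not given in the sources used here. A difference between the groups can therefore come from the lost receptor or from the clone, and these cannot be told apart. The p-values measure the spread between cultures of the same cells.

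Melanin is made inside melanosomes from tyrosine. Tyrosinase, encoded by Tyr, catalyses the first and rate-limiting step, and its relatives Dct (dopachrome tautomerase) and Tyrp1 act further along the route to the brown and black eumelanin. PMEL forms the amyloid fibrils on which melanin is laid down, ion transporters set the pH and ion content of the organelle, and RAB27A links the mature melanosome to its motor. Most of these genes are switched on by MITF, the master transcription factor of melanocytes, which binds the E-box CATGTG and in particular its extended form in the M-box, TCATGTG.

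RefSeq promoters (GRCm38.p6) were found for 6 of the 10 genes: Tyr, Tyrp1, Dct, Slc24a5, Oca2 and Rab27a. Pmel, Mlana, Gpr143 and Slc45a2 had no promoter in the set used and were not searched. The E-box was looked for in the 250 bases before each start, on both strands. The stretches that hold it are shown because they place a known recognition sequence of MITF beside these genes. Each is written 5′ to 3′ on the strand of the gene. CATGTG or its reverse complement CACATG is in capitals, with 1 more capital where the match extends to TCATGTG or CACATGA.
Tyr, chr7:87493513-87493558, minus strand: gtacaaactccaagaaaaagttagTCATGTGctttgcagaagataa
Tyrp1, chr4:80834142-80834197, plus strand: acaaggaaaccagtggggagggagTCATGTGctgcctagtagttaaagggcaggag
Dct, chr14:118052366-118052421, minus strand: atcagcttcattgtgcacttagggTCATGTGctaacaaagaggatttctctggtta
Dct, chr14:118052448-118052496, minus strand: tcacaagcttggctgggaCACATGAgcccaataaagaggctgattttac
Slc24a5, chr2:125068089-125068126, plus strand: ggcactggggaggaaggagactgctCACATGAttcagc
Oca2, chr7:56239548-56239603, plus strand: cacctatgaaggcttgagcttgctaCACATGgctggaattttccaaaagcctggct

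The extended motif TCATGTG was present in the promoters of 4 of the 6 genes, Tyr, Tyrp1, Dct and Slc24a5, against 3.25% of all 32851 RefSeq promoters of the same length. The core CATGTG alone was present upstream of Oca2, and 12.3% of all promoters hold it. The nearest match began 21 bases before the start in Tyr, 46 in Tyrp1, 150 in Dct, 13 in Slc24a5 and 186 in Oca2. Neither of the promoters of Rab27a held the core. The E-box CACGTG was found in 1 of them, against 6.02% of all promoters, and the cAMP response element TGACGTCA in none of the 6 genes, against 1.55%. These are matches of letters in a window and were not measured as binding.

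Libraries held 6698956 to 10579788 counts on genes, and every IFNγR1KO library held fewer than every scrambled control library. No pair within a group was alike within sampling noise (chi-square per degree of freedom of 2.62 or more), so each library was kept as its own replicate. Scrambled control replicate 3 and IFNγR1KO replicate 12 stood apart from the other libraries of their groups, though each correlated most with its own group. Across the log2 CPM of genes, scrambled control replicates 1 and 2 had a Pearson's r of 0.988, and replicate 3 had 0.982 and 0.984 with them. IFNγR1KO replicates 10 and 11 had 0.990, and replicate 12 had 0.977 and 0.980 with them. Replicate 3 correlated with replicate 12 at 0.967, and with IFNγR1KO replicates 10 and 11 at 0.947 and 0.955. By chi-square per degree of freedom, replicate 3 was instead nearest to replicate 12 (19.6), against 22.7 and 20.4 with scrambled control replicates 1 and 2. Replicate 12 was nearer to its own group, at 18.4 and 15 with IFNγR1KO replicates 10 and 11. This measure grows with the number of counts, which was lower in IFNγR1KO libraries. CPM are counts scaled to a common library total with the TMM factor of each library. The targeted gene Ifngr1 ranged from 14.3 to 16.7 CPM in scrambled control and from 11.4 to 11.5 CPM in IFNγR1KO libraries, which did not overlap (log2 fold change -0.47, adjusted p = 0.0729 in edgeR). Its RNA was counted in all 6 libraries, and no protein was measured in them. Mitf, Sox10, Pmel, Mlana, Tyr and Dct, the transcripts taken to define melanocytic cells, were counted in every library, while Ednrb and Mia of the wider melanocytic list had no count in any library and Birc7 had 0 to 2. Markers of other cell types were at or near 0 for most lists: all 5 T cell markers had no count, all 5 keratinocyte and all 4 endothelial markers had 3 counts or fewer in every library, and Ptprc, Adgre1, Itgam and C1qa of the 6 macrophage markers likewise, while Csf1r was at 5.97 to 9.27 CPM over the 6 libraries. Of the 6 fibroblast markers, Col3a1, Dcn and Lum had 3 counts or fewer in every library, while the summed level of the list was 70.1 to 86.7 CPM in scrambled control and 147 to 158 CPM in IFNγR1KO libraries, most of it Col1a2 at 52.5 to 69.5 and 122 to 125 CPM, with Pdgfrb at 14.3 to 19.1 and 20.1 to 26.9 CPM and Col1a1 at 1.06 to 1.74 and 3.84 to 6.61 CPM. Col1a2 and Col1a1 were called higher in IFNγR1KO cells, by log2 fold changes of 1.07 and 1.96 (adjusted p = 0.000476 and 0.00175 from edgeR). Pdgfrb, at 0.46, was not called (adjusted p = 0.103 from edgeR). The part of these markers in the results below was not tested.

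Pmel, Mlana, Tyrp1 and Dct were among the most abundant RNAs of both groups, and the other pigment transcripts ranked lower. Together the 10 genes took 3.39% to 3.51% of all counts in scrambled control and 3.09% to 3.40% in IFNγR1KO libraries, and Dct was the gene with the most counts in each of the 6 libraries. Per kilobase of annotated exon, the levels in scrambled control were 3240 ± 213 CPM per kb for Pmel, 3070 ± 542 for Mlana, 2500 ± 184 for Tyrp1 and 2450 ± 293 for Dct (SD, n = 3). In every library these 4 were between ranks 6 and 18 of all annotated genes per kilobase. The transporters Slc45a2 and Slc24a5 followed at 396 ± 23.7 and 387 ± 18.7 CPM per kb. Tyr stood at 94.4 ± 16.1, Rab27a at 56.1 ± 1.72, Gpr143 at 28.0 ± 1.11 and Oca2 at 11.5 ± 0.512 CPM per kb. Over the 6 libraries their ranks per kilobase were 530 to 783, 953 to 1198, 2101 to 2244 and 4492 to 6418. The ranges of neighbours in this order overlapped within the leading 4 (Pmel and Mlana, Mlana and Tyrp1, Tyrp1 and Dct) and between Slc45a2 and Slc24a5, and did not overlap at any other step. In IFNγR1KO cells the order was the same except that Dct (2390 ± 403 CPM per kb) stood before Tyrp1 (2100 ± 121), whose ranges overlapped, and Slc24a5 (362 ± 34.4) before Slc45a2 (290 ± 9.52), whose ranges did not. The exon lengths include every annotated transcript, 7108 bases in Tyr, and which of them these cells use was not measured.

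**Figure D1:**
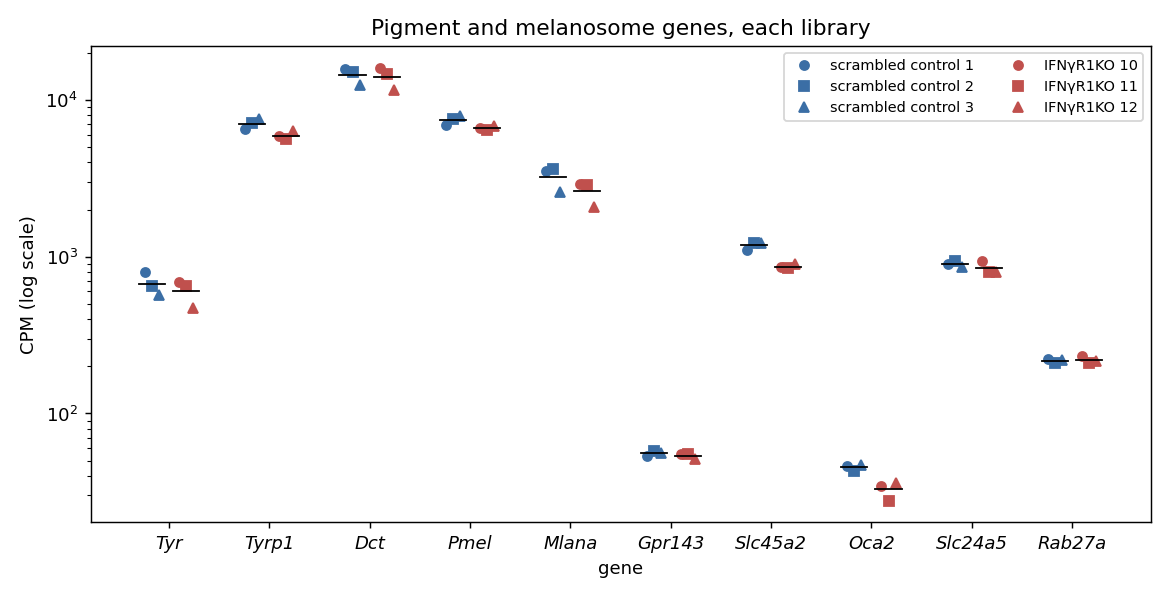
CPM (log scale) of each pigment gene in the 3 scrambled control (blue) and 3 IFNγR1KO (red) libraries, with marker shapes for the replicates and a bar at each group mean. Dct lies highest, with means of 14400 and 14100 CPM, Oca2 lies lowest, with means of 45.4 and 32.7 CPM, and the colours separate for Tyrp1, Pmel, Slc45a2 and Oca2.

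Between the groups, 1 of the 10 genes passed the test: Oca2 was lower in IFNγR1KO cells with an adjusted p of 0.0432 (edgeR's quasi-likelihood test, Benjamini-Hochberg over the 13642 genes tested). Among all tested genes, 7.62% were called lower, 7.73% higher and 15.3% in either direction at this threshold of 0.05, so the share of pigment genes called is near that of genes at large. None of the 10 was a DEG by the limits of the study, which add to that threshold a log2 change of more than 1 in size. The study set these limits on DESeq2's Wald test, and here they were set on edgeR's test. Of all tested genes 5.20% were DEGs. At an unadjusted p under 0.05 in edgeR there were 2, Oca2 and Slc45a2, a looser limit that at least 15.3% of all tested genes pass. The median log2 fold change was -0.16 over the 10 genes and 0.00 over all genes tested. Of the 10 values 9 were below 0, from -0.47 to -0.03, against 6848 of all 13642. Among the lists described below, cytoskeletal transport and PMEL processing leaned likewise, with 9 of 11 and 8 of 9 values below 0. Cargo sorting and lineage regulators did not, with 13 of 29 and 5 of 15. For Tyrp1, Pmel, Slc45a2 and Oca2, 4 of the 10, every IFNγR1KO library was below every scrambled control library. Among all tested genes 16.6% were separated in this direction, 16% in the other and 32.6% in either. With 3 libraries against 3, the two-sided exact permutation test of such a gene gives p = 0.1, the smallest it can give.

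Oca2 and Slc45a2, both transporters, differed most between the groups. OCA2 is a melanosomal membrane protein of the anion channel type that raises the pH of the organelle, and its loss causes oculocutaneous albinism. Oca2 (ENSMUSG00000030450.11, chromosome 7 of GRCm38, 56239760 to 56536518) was at 46.2, 43.1 and 46.9 CPM in scrambled control replicates 1, 2 and 3 and at 34.5, 27.8 and 35.9 CPM in IFNγR1KO replicates 10, 11 and 12. Every IFNγR1KO library was below every scrambled control library, on 205 to 255 counts against 426 to 485. The log2 fold change was -0.47 (standard error 0.14, 95% interval -0.79 to -0.16), or 0.720 times the scrambled control level. This call was close to the threshold: with libraries left out singly the adjusted p ran from 0.0208 to 0.240 and passed in 1 of the 6 fits, that without IFNγR1KO replicate 12. After thinning of the counts to an equal total per library it was 0.0541. SLC45A2 is a proton-coupled transporter that also keeps the melanosome from becoming acidic, and is the gene of the underwhite mouse. Slc45a2 (ENSMUSG00000022243.10, chromosome 15, 11000721 to 11029233) was at 1100, 1220 and 1220 CPM in scrambled control and at 855, 842 and 896 CPM in IFNγR1KO libraries. The groups again did not overlap. Its log2 fold change of -0.45 (standard error 0.14, 95% interval -0.76 to -0.14) missed the threshold in edgeR, with an adjusted p of 0.0536, and passed it in DESeq2's Wald test, with an adjusted p of 0.00365. It also passed in edgeR without IFNγR1KO replicate 12. SLC24A5 is a potassium-dependent sodium-calcium exchanger. Slc24a5 (ENSMUSG00000035183.14, chromosome 2, 125068124 to 125088677) ranged from 856 to 942 CPM in scrambled control and from 795 to 935 CPM in IFNγR1KO libraries, which overlapped, with a log2 fold change of -0.10 (95% interval -0.42 to 0.22, adjusted p = 0.724 from edgeR). Exons of Myef2 on the other strand lie over 39.5% of its exonic bases, and the strand setting of the counting is not stated, so its counts are less certain than those of the other transporters.

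**Figure D2:**
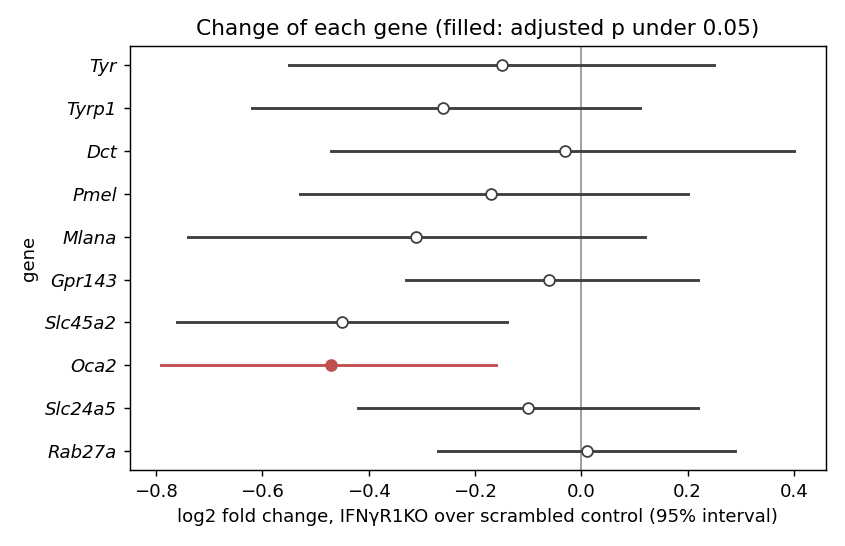
Log2 fold change of IFNγR1KO over scrambled control for each pigment gene, with 95% intervals from edgeR's quasi-likelihood fit of 3 against 3 libraries. Oca2 (filled) passed an adjusted p of 0.05, the interval of Slc45a2 also lies below 0, and the intervals of the other 8 genes cross 0.

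The 3 enzymes did not pass the test. Tyr (ENSMUSG00000004651.6, chromosome 7, 87424771 to 87493512) was at 794, 653 and 566 CPM in scrambled control and at 691, 650 and 472 CPM in IFNγR1KO libraries. The groups overlapped, and the log2 fold change was -0.15 (95% interval -0.55 to 0.25, adjusted p = 0.645 from edgeR). Tyrp1 (ENSMUSG00000005994.14, chromosome 4, 80834123 to 80851719) was at 6520, 7170 and 7550 CPM in scrambled control and at 5850, 5630 and 6300 CPM in IFNγR1KO libraries. Each IFNγR1KO value was below each scrambled control value, by a log2 fold change of -0.26 with an interval of -0.62 to 0.11 (adjusted p = 0.359 from edgeR). Dct (ENSMUSG00000022129.4, chromosome 14, 118012790 to 118052244) was at 15800, 15000 and 12500 CPM in scrambled control and at 16100, 14600 and 11500 CPM in IFNγR1KO libraries. The highest and the lowest value of Dct were both in IFNγR1KO libraries, and the log2 fold change was -0.03 (95% interval -0.47 to 0.40, adjusted p = 0.940 from edgeR). Its sign changed when scrambled control replicate 1 or IFNγR1KO replicate 12 was left out, to 0.03 and 0.09.

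The balance between the enzymes was compared as a ratio within each library, which needs no scaling between libraries. On the log2 scale and per kilobase, Tyr stood below Dct by -4.70 ± 0.11 in scrambled control and -4.82 ± 0.06 in IFNγR1KO cells (mean ± SD, n = 3 each; two-sided exact permutation test, p = 0.2, adjusted p = 0.6 over 3 ratios). Tyr relative to Tyrp1 was -4.74 ± 0.35 and -4.64 ± 0.37 (exact permutation p = 1, adjusted p = 1), and Tyrp1 relative to Dct was 0.04 ± 0.28 and -0.18 ± 0.32 (exact permutation p = 0.5, adjusted p = 0.75). The libraries of the groups overlapped in each of the 3 ratios, in a design that cannot give a p under 0.1. In both groups the Tyrp1 to Dct ratio was highest in the library that stood apart, at 0.34 in scrambled control replicate 3 and 0.19 in IFNγR1KO replicate 12.

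Of the structural proteins, Pmel, whose product forms the fibrils, was at 6890, 7530 and 7850 CPM in scrambled control and at 6650, 6390 and 6800 CPM in IFNγR1KO libraries (ENSMUSG00000025359.10, chromosome 10, 128704195 to 128720238). The highest IFNγR1KO value lay just under the lowest scrambled control value, and the log2 fold change was -0.17 (95% interval -0.53 to 0.20, adjusted p = 0.572 from edgeR). Exons of Cdk2 and Dgka on the other strand lie over 6.06% of its exonic bases. Mlana encodes MART-1, a small membrane protein that binds PMEL and is a target of T cells in melanoma. Mlana (ENSMUSG00000024806.4, chromosome 19, 29697824 to 29708634) was at 3520, 3640 and 2590 CPM in scrambled control and at 2920, 2870 and 2070 CPM in IFNγR1KO libraries. The groups overlapped only through scrambled control replicate 3, and the log2 fold change was -0.31 (95% interval -0.74 to 0.12, adjusted p = 0.335 from edgeR).

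Gpr143 and Rab27a were at nearly the same level in all libraries. Gpr143, the ocular albinism receptor of the melanosome membrane (ENSMUSG00000025333.10, chromosome X, 152781921 to 152808646), ranged from 53.5 to 57.9 CPM in scrambled control and from 51.0 to 55.0 CPM in IFNγR1KO libraries, a log2 fold change of -0.06 (95% interval -0.33 to 0.22, adjusted p = 0.814 from edgeR). Rab27a, the GTPase of the ashen mouse (ENSMUSG00000032202.11, chromosome 9, 73044854 to 73097629), ranged from 210 to 223 CPM in scrambled control and from 211 to 234 CPM in IFNγR1KO libraries, a log2 fold change of 0.01 (95% interval -0.27 to 0.29, adjusted p = 0.963 from edgeR). For the 8 genes other than Oca2 and Slc45a2, the intervals together ran from -0.74 to 0.40 on the log2 scale, with the narrowest for Gpr143 and Rab27a. Of the 6 genes whose promoters were searched, 4 had the extended E-box upstream. Their log2 fold changes were -0.15 for Tyr, -0.26 for Tyrp1, -0.03 for Dct and -0.10 for Slc24a5, and none of them passed the test. Whether Pmel, Mlana, Gpr143 and Slc45a2 hold the motif was not examined.

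Libraries of the same group also differed from each other, and for most of these genes alike in both groups. In scrambled control replicate 3 and in IFNγR1KO replicate 12 alike, Tyr, Dct, Mlana and Slc24a5 had the lowest value of their group, and Tyrp1, Pmel, Slc45a2 and Oca2 had the highest. For Mlana these deviations from the group mean were -0.31 and -0.32 on the log2 CPM scale, for Tyr -0.23 and -0.34, and for Dct -0.20 and -0.28. For Tyrp1 they were 0.10 and 0.09. Some places rested on near ties. Slc45a2 was at 0.06 in scrambled control replicate 3 and 0.05 in replicate 2, and Oca2 at 0.05 in replicate 3 and 0.03 in replicate 1. Slc24a5 was at -0.08 in IFNγR1KO replicate 12 and -0.07 in replicate 11. A shared lowest or highest place held for 8 of the 10 genes, for 56.5% of all tested genes and for 73.1% of the 2062 tested genes with a mean of at least 100 CPM. It was therefore a feature of these libraries at large. The labels do not tie the 2 libraries to each other. Without both of them, an alternative added after the data were seen, Mlana, Slc45a2 and Oca2 passed the test. Their log2 fold changes were -0.31, -0.45 and -0.52, with adjusted p of 0.0232, 0.00358 and 0.0140 from edgeR, while Tyrp1 had -0.25 with an adjusted p of 0.0548. Calls rose among genes at large too, to 3064 in that fit from 2093 with all 6 libraries. Over the 10 genes, the median range between libraries of a group was 0.18 on the log2 scale in scrambled control and 0.20 in IFNγR1KO cells. Over tested genes with a mean of at least 100 CPM it was 0.36 and 0.34. These sets were not matched for level, since Gpr143 and Oca2 lie under 100 CPM, and the difference was not tested.

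**Figure D3:**
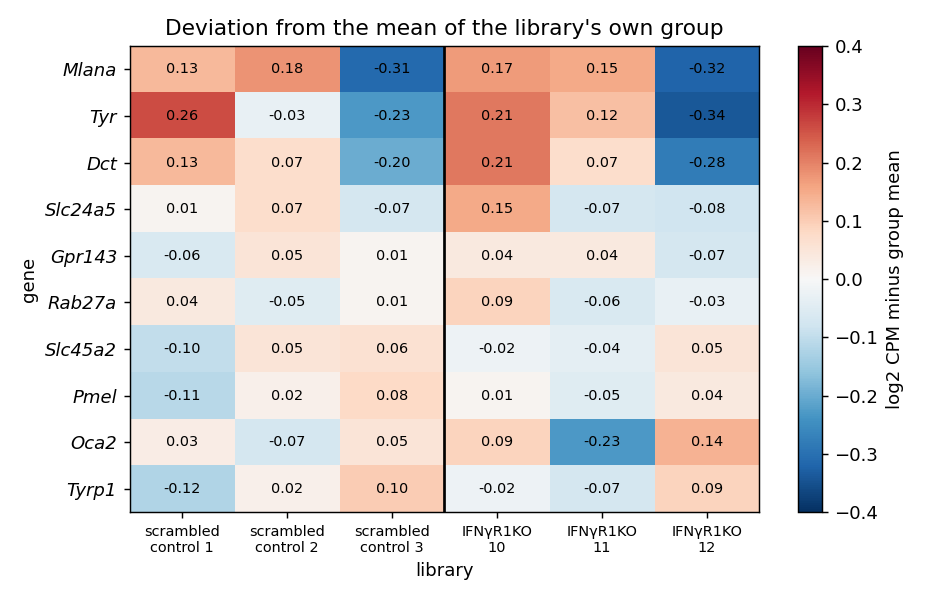
Deviation of log2 CPM from the mean of the library's own group, for each pigment gene (rows) in each library (columns), printed in each cell and coloured from blue (below) to red (above). Mlana, Tyr and Dct are lowest in scrambled control replicate 3 and in IFNγR1KO replicate 12, where Tyrp1, Pmel, Slc45a2 and Oca2 are highest.

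The rest of the pathway was read from lists of genes by function. Of the 15 tested lineage regulators none was called by edgeR, against 15.3% of all tested genes, or by limma-voom. DESeq2 called 1 (Ctnnb1, which encodes β-catenin and was named after its values were seen). An unadjusted p under 0.05 in edgeR was reached by 3, a limit that at least 15.3% of all tested genes pass. Mitf was at 217, 174 and 228 CPM in scrambled control and at 246, 275 and 281 CPM in IFNγR1KO libraries. The groups did not overlap, with Mitf higher in IFNγR1KO, at a log2 fold change of 0.37 (95% interval 0.06 to 0.69, adjusted p = 0.109 from edgeR). Pax3, an activator of Mitf, had a log2 fold change of 0.37 (adjusted p = 0.0732 from edgeR) and Sox10, another activator, of -0.15 (adjusted p = 0.626 from edgeR). Ctnnb1 had a log2 fold change of -0.43 with an adjusted p of 0.0743 in edgeR and 0.0133 in DESeq2. Without scrambled control replicate 3 and IFNγR1KO replicate 12, 3 of them passed the test: Mitf and Pax3 as higher, with adjusted p of 0.0181 and 0.0243 from edgeR, and Ctnnb1 as lower. That fit was added after the data were seen. Calls rose in it among all genes tested too, to 3064 from 2093 with all 6 libraries, so the rise was not particular to lineage regulators.

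Among melanocytic genes outside the melanosome, 3 of the 11 tested genes reported here were called, 27.3% against 15.3% of all genes, and these 3 were lower in IFNγR1KO cells. Kit, the receptor for stem cell factor, was at 43.2, 41.2 and 50.4 CPM in scrambled control and between 8.24 and 13.4 CPM in IFNγR1KO libraries, and fell by 1.96 on the log2 scale (adjusted p = 0.000048 from edgeR). Cited1, a transcriptional co-regulator that has been linked to pigment synthesis, fell by 1.06 (adjusted p = 0.000793 from edgeR). Met, the receptor for hepatocyte growth factor, which was named after its values were seen, fell by 0.67 (adjusted p = 0.0202 from edgeR), a call lost without scrambled control replicate 3 or IFNγR1KO replicate 10 or 11. Mc1r, the melanocortin receptor that sets the type of melanin, was at 154, 162 and 161 CPM in scrambled control and at 122, 122 and 141 CPM in IFNγR1KO libraries. Its groups did not overlap and its log2 fold change was -0.31 (adjusted p = 0.136 from edgeR), and exons of Gm38092 on the other strand lie over 17.9% of its exonic bases.

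In the machinery that builds and moves melanosomes, the shares of genes called were below the 15.3% of all tested genes, on lists of 9 to 29 tested genes, and no test of that difference was made. Of 29 tested genes for cargo sorting, which include the BLOC complexes and the AP-3 adaptor, 1 was called higher and 1 lower, 6.90% in all, and the median log2 fold change was 0.01. Hps1, a subunit of BLOC-3, rose by 0.60 (adjusted p = 0.0193 from edgeR) and Stx12, a SNARE of recycling endosomes, fell by 0.51 (adjusted p = 0.0200 from edgeR). Neither was called without scrambled control replicate 1 or 2, and Stx12 was not called without IFNγR1KO replicate 10 or 11. Rab32 and Rab38, the GTPases that deliver tyrosinase family enzymes, had log2 fold changes of 0.01 and 0.14 (adjusted p = 0.976 and 0.623 from edgeR). Of 11 tested genes for transport along the cytoskeleton 1 was called, 9.09%: Rab17, a GTPase involved in melanosome release, fell by 0.80 (adjusted p = 0.0304 from edgeR), from 92.1, 69.0 and 54.4 CPM in scrambled control to 49.6, 45.9 and 28.3 CPM in IFNγR1KO libraries. It was not called without scrambled control replicate 1 or 2 or without IFNγR1KO replicate 11. The partners of RAB27A on actin, the motor Myo5a and its linker Mlph, had log2 fold changes of -0.34 and -0.13 (adjusted p = 0.243 and 0.620 from edgeR). Of 9 genes for PMEL processing and the amyloid matrix 1 was called, 11.1%: Adam10, a membrane protease, fell by 0.67 (adjusted p = 0.0178 from edgeR), a call that was lost without IFNγR1KO replicate 10 or 11. Gpnmb, a relative of Pmel, was at 4950, 5400 and 5500 CPM in scrambled control and at 3970, 4050 and 4520 CPM in IFNγR1KO libraries, which did not overlap, with a log2 fold change of -0.34 (adjusted p = 0.198 from edgeR).

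The list of other ion and small molecule transporters held 2 called genes of 11 tested, 18.2% against 15.3% of all tested genes. Both were higher in IFNγR1KO cells. The list is not limited to proteins of the melanosome membrane. Slc7a11, the cystine-glutamate exchanger whose cystine feeds the red pheomelanin branch and glutathione synthesis, was at 28.0, 22.0 and 31.6 CPM in scrambled control and at 83.0, 92.0 and 99.4 CPM in IFNγR1KO libraries. The groups were far apart, and Slc7a11 rose by 1.75 (standard error 0.16, adjusted p = 0.000026 from edgeR). Mcoln1, a calcium channel of lysosomes, rose by 0.63 (adjusted p = 0.0135 from edgeR), and was not called without IFNγR1KO replicate 10 or 11. The median of this list was -0.15, with 7 of its 11 values below 0.

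**Figure D4:**
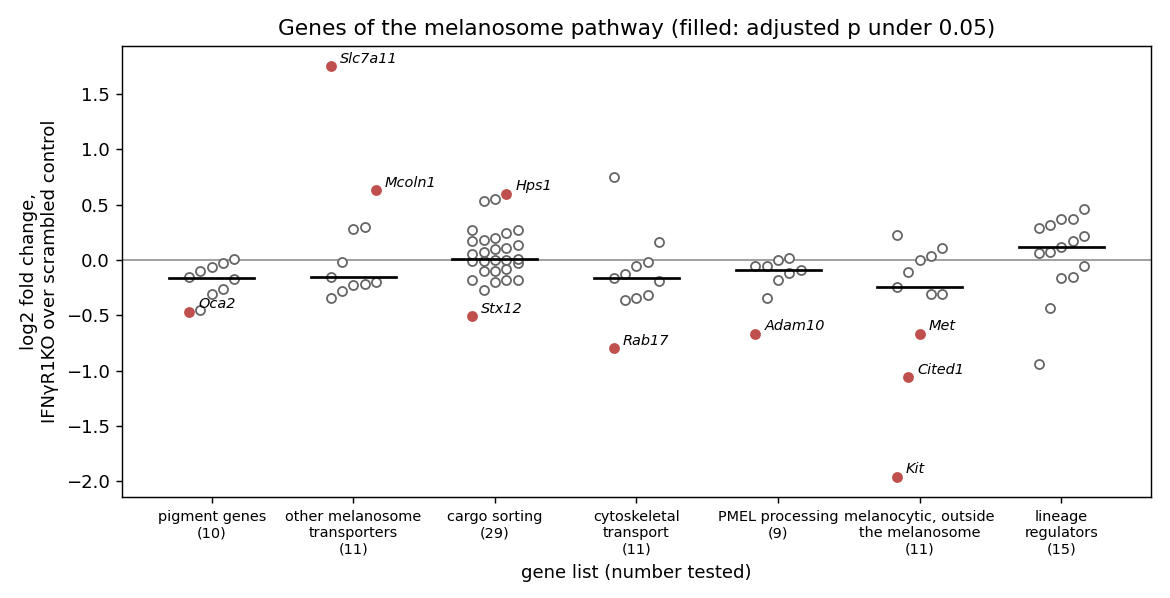
Log2 fold change of IFNγR1KO over scrambled control for each tested gene of the pigment set and of 6 lists of the pathway, with a bar at each list's median and the genes with an adjusted p under 0.05 filled and named. The medians lie between -0.24 and 0.12, and the values farthest from 0 are those of Kit, at -1.96, and Slc7a11, at 1.75.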

How the data were processed

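RNA of 6 cultures, 3 per group, was analysed. Per the submitters' processing notes, the alignment was made with STAR 2.7.5a on GRCm38 and counted with HTSeq 0.11.2. The authors deposited these counts as raw whole numbers, not normalized; the annotation release and strand setting are not given in the sources used here. Of 55335 identifiers, 55154 were found in GENCODE M21, which gave symbols, positions and exon lengths. The rows for reads on no gene (46.9% to 47.7% of reads listed) stayed out of totals and tests.

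Groups were compared in R 4.3.3 with edgeR 4.0.16 (TMM, quasi-likelihood test, Benjamini-Hochberg) on genes passing filterByExpr at 10 counts and 15 in total. Standard errors are the fold change over the root of the F statistic, and 95% intervals use the t distribution. DESeq2 1.42.0, limma-voom (limma 3.58.1), other filters, scaling, thinning, thresholds and left-out libraries were alternatives. Ratios within libraries were compared by exact permutation. The fit was tested on simulated counts.

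The genes and lists were chosen with earlier results of these data known. Named were the 10 genes, Ifngr1, 9 defining genes of the process, and up to 2 called genes per list and direction. A single count was 0.0966 to 0.142 CPM, and intervals cover these libraries only. Vamp7 of the sorting list was not analysed here, and 1 gene of the list of melanocytic genes outside the melanosome is not reported here and is left out of that list's counts and median.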

Additional observations from a re-analysis of the deposited data

How the results depend on the processing

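The count of called pigment genes, 1 of 10, moved with most settings: 2 with DESeq2 and without the filter on low counts, 0 after thinning, at an adjusted p under 0.01 or with a log2 limit of 1, 0 to 2 with single libraries left out, and 3 without scrambled control replicate 3 and IFNγR1KO replicate 12. Oca2 was at -0.44 after thinning, no longer past the threshold, and ran from -0.55 to -0.35 with single libraries left out. Slc45a2 passed it with DESeq2 (-0.46), without the filter (-0.48) and without both libraries (-0.45), and ran from -0.50 to -0.42. Mlana passed it without both libraries (-0.31) and ran from -0.45 to -0.17. The sign of Dct changed with single libraries left out (range -0.14 to 0.09), and that of Rab27a without the filter (-0.02), after thinning (-0.000818) and with single libraries left out (range -0.03 to 0.06); neither value was past the threshold. Tyr, Tyrp1, Pmel, Gpr143 and Slc24a5 kept their sign and did not pass the threshold, but with single libraries left out Tyr ran from -0.26 to -0.00364, Tyrp1 from -0.31 to -0.20, Pmel from -0.22 to -0.12, Gpr143 from -0.09 to -0.03 and Slc24a5 from -0.18 to -0.04.

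Over all genes, 2093 were called, against 2022 with DESeq2, 2632 without the filter on low counts and 1995 after thinning. The count was 871 at an adjusted p under 0.01 and 710 with a log2 limit of 1. It was 3064 without both libraries and 1028 to 2824 with single libraries left out (lowest without scrambled control replicate 2 or IFNγR1KO replicate 10 or 11). Called lineage regulators numbered 1 with DESeq2 and without the filter, 3 without both libraries and 0 to 1 with single libraries left out. At an adjusted p under 0.01, and likewise with the log2 limit, 1 other transporter and 0 genes of cargo sorting, cytoskeletal transport and PMEL processing were called. With single libraries left out these lists held 1 to 2, 0 to 2, 0 to 2 and 0 to 1 called genes, and without both libraries PMEL processing held 2. The causes were not tested. No paired analysis was possible because the labels give the groups no shared replicate number, and no block chosen from the values was fitted. IFNγR1KO libraries held fewer counts than scrambled control libraries.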
